A study of Mus musculus with 468 samples.

Results

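The 9 chemokine genes Ccl2, Ccl6, Ccl7, Ccl8, Ccl9, Ccl11, Cxcl12, Cx3cl1 and Cxcl10 were followed across adipose tissue. They were taken by symbol from the table of counts, and all 9 were among its 23180 genes and among the 18380 genes that passed the filter on low counts. RNA had been sequenced from Diversity Outbred (DO) mice, an outbred stock bred from inbred founder strains, so that each animal carries its own mixture of founder genomes. All mice received a high-fat, high-sugar diet, labelled as 45 percent fat, and each mouse gave 1 library. The labels give no fat depot, sex, generation or batch, although the methods name the gonadal fat pad and mice of both sexes, and no group without the diet was analysed here, so the libraries form 1 group and the comparisons concern how genes varied together from mouse to mouse. The mice were adults at harvest.

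Chemokines are small secreted proteins that direct the movement of leukocytes through receptors on the cell surface. Ccl2, Ccl7 and Ccl8 belong to the monocyte chemoattractant proteins, and Ccl2 and Ccl7 act on the receptor Ccr2 of monocytes. Ccl6 and Ccl9 are rodent chemokines of myeloid cells that act on Ccr1, Ccl11 (eotaxin) draws eosinophils through Ccr3, and Cxcl12 retains blood cell precursors and lymphocytes through Cxcr4. Cx3cl1 (fractalkine) is made as a membrane protein and binds Cx3cr1, and Cxcl10 is induced by interferon gamma and draws activated T cells through Cxcr3. Obese adipose tissue is known to gather macrophages and T cells. Each chemokine was therefore set against Adgre1, which encodes the macrophage surface protein F4/80, Cd3e, a subunit of the T cell receptor complex, and Pdgfra, a receptor carried by adipocyte progenitors.

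On the mouse genome (GRCm38), 6 of the genes lie on chromosome 11 in 2 clusters. Ccl2 (82035571 to 82037453), Ccl7 (82045712 to 82047525), Ccl11 (82057823 to 82062955) and Ccl8 (82115185 to 82116799) follow each other on the plus strand. Ccl9 (83572919 to 83578636) and Ccl6 (83587882 to 83593087) lie side by side on the minus strand. Cxcl10 lies on chromosome 5 (92346638 to 92348889, minus strand), Cxcl12 on chromosome 6 (117168535 to 117181367, plus strand) and Cx3cl1 on chromosome 8 (94772009 to 94782427, plus strand). Annotated genes overlap Ccl2 (Gm17268), Ccl6 (E230016K23Rik) and Cxcl10 (Art3), and whether the counting used strand is not given in the sources used here, so reads of these overlapping genes could not be told apart from those of the chemokines.

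The RefSeq promoter table (GRCm38.p6) held 6 of the 9 genes: Ccl6, Ccl8, Ccl9, Cxcl12, Cx3cl1 and Cxcl10. The 250 bases before the start site are printed for Ccl6 and Ccl9, neighbours that varied together, and for Cxcl10, whose relation to targets of interferon gamma is described further on. Bases run 5′ to 3′ on the strand of the gene, positions count back from the start site, and capitals mark the letters of a searched motif. The windows are chr11:83593088-83593337 for Ccl6, chr11:83578637-83578886 for Ccl9 and chr5:92348890-92349139 for Cxcl10, all on the minus strand.
Ccl6: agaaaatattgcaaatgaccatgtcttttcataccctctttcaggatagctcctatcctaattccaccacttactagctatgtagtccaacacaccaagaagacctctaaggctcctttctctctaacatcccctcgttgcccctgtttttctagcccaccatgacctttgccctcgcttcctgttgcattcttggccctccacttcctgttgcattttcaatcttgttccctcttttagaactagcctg
Ccl9: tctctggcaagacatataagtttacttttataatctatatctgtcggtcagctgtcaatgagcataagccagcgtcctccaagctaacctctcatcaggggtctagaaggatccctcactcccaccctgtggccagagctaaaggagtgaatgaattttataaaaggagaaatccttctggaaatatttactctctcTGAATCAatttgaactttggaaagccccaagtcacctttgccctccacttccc
Cxcl10: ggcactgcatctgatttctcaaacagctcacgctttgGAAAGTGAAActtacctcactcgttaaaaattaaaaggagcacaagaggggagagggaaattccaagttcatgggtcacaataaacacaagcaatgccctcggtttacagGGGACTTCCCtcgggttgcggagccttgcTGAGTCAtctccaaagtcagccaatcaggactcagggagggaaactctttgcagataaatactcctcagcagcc

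Motifs were searched as letters on both strands, and N stands for any base. The Cxcl10 window held a core of the interferon-stimulated response element (GAAA, any 2 bases, GAAA) as GAAAGTGAAA at -213 to -204, a core of the NF-kB site (GGGA, any base, TT, any base, CC) as GGGACTTCCC at -103 to -94, and a core of the AP-1 site (TGANTCA) as TGAGTCA at -74 to -68. Among 32851 promoters of the same length, 2.98% held the first of these cores, 0.98% the NF-kB core and 6.75% the AP-1 core. The Ccl9 window held the AP-1 core as TGAATCA at -53 to -47. The letters searched for PU.1 (GAGGAAGT, in 2.44% of promoters) and C/EBP (TTGCNNAA, in 9.56%) were in none of the 6 windows, and no searched letters were in the windows of Ccl6, Ccl8, Cxcl12 and Cx3cl1. These matches describe the sequence and were not tested as sites.

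Levels are given as CPM (counts per 1000000 of the library), scaled by the trimmed mean of M values (TMM), which divides each library by a factor estimated from most of its genes. The lowest total was 35.3 M expected counts and the highest 137.8 M (median 82.04 M), and TMM factors lay between 0.578 and 1.36. In 51.5% of libraries the Y chromosome genes Ddx3y, Eif2s3y, Kdm5d or Uty had counts, and in 48.5% none of them had any. Markers of adipocytes were present throughout, with a summed level of Adipoq, Plin1, Fabp4, Cidec, Lipe and Lep from 7020.7 to 26194 CPM (median 18292). The 12 macrophage markers summed to between 369.4 and 5852.6 CPM (median 1100.7) and the 8 T cell markers to between 3.79 and 102.05 CPM (median 13.6), and no marker of these lists was at 0 in all libraries.

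Ccl2 and Ccl7 varied most from mouse to mouse, and Cxcl12 and Ccl11 varied least. Ccl2 was at 0.198 CPM in the lowest library, 2.24 CPM in the median library and 55.1 CPM in the highest. Ccl7 ran from 0 over a median of 1.501 to 36.4 CPM, and 7 libraries had fewer than 10 counts of it. Ccl8 ran from 0.201 over 3.21 to 32.5 CPM. The ratio of the 95th to the 5th percentile over libraries was 54.3 for Ccl7, 49.4 for Ccl2 and 31.3 for Ccl8, so these 3 monocyte chemoattractants were both scarce in the median mouse and the widest in range.

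The myeloid chemokines were far more abundant. Ccl6 ran from 14.8 over a median of 78.8 to 785 CPM, and Ccl9 from 10.4 over 62.1 to 674.4 CPM. Their 95th and 5th percentiles stood apart by ratios of 6.21 and 8.24. The highest value of both came from the same mouse, DO088, as did the highest value of Pdgfra (285.7 CPM), and the highest values of Ccl2 and Ccl7 both came from mouse DO528.

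Cxcl12 had the highest median CPM of the 9 genes, from 91.1 over a median of 201.8 to 474.3 CPM. Ccl11 lay between 10.3 and 54.2 CPM (median 25.1), and these 2 genes had percentile ratios of only 2.16 and 2.56. Cx3cl1 ran from 2.18 over 5.66 to 25.8 CPM and Cxcl10 from 0.659 over 3.17 to 15.5 CPM, with ratios of 3.93 and 4.84. As a standard deviation (SD) of log2 CPM over libraries, Ccl7 had 1.79, above 95.9% of the genes tested, Ccl2 1.70, Ccl8 1.49, Ccl9 0.93, Ccl6 0.80, Cxcl10 0.65, Cx3cl1 0.62, Ccl11 0.40 and Cxcl12 0.36, while the median gene had 0.46. No mouse was measured again, so the SD also holds the error of the measurement.

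**Figure D1:**
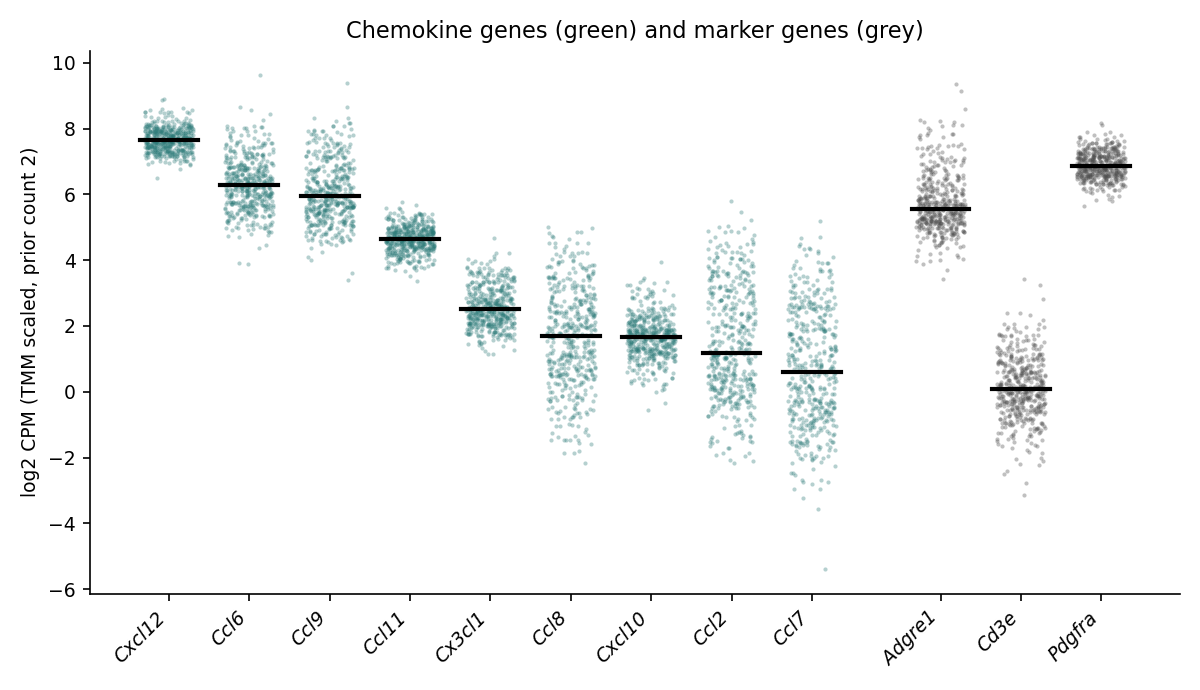
Log2 CPM of the 9 chemokine genes (green) and the 3 marker genes (grey), 1 point per library, with black bars at the median over libraries. Cxcl12 and Ccl11 form narrow bands, with SDs of 0.36 and 0.40, while Ccl2, Ccl7 and Ccl8 spread over the widest ranges, with SDs of 1.70, 1.79 and 1.49.

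Per kilobase of merged exons, the order of the median levels was Ccl6 (43.9 CPM per kb), Cxcl12 (24.7), Ccl11 (23.2), Ccl9 (20.4), Ccl8 (6.29), Ccl2 (1.97), Ccl7 (1.87), Cx3cl1 (1.44) and Cxcl10 (1.41). Several neighbours in this order did not stand apart. Cxcl12 exceeded Ccl11 in 57.05% of libraries, Ccl11 exceeded Ccl9 in 57.48%, Ccl7 exceeded Cx3cl1 in 54.7% and Cx3cl1 exceeded Cxcl10 in 53.63%. Ccl9 exceeded Ccl8 in 91.88% of libraries and Ccl6 exceeded Cxcl12 in 81.62%. Taking the length of the longest transcript in place of merged exons moved Cxcl12 to 35.9 CPM per kb.

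The first question was which chemokines rose and fell together. Over the 36 pairs of genes, 8 had a Pearson correlation r above 0.5, the median r was 0.0607, and 24 had a permutation p below 0.05. That threshold was easily passed here: 80.8% of all genes were associated with Ccl2 at an adjusted p below 0.05 in limma, 80.7% with Ccl7, 78.6% with Ccl9, 75.5% with Ccl6, 74.1% with Cx3cl1 and 72% with Ccl8, against 34% with Cxcl12, 29.2% with Ccl11 and 18.6% with Cxcl10. The size of r is therefore given rather than the number of pairs past a threshold. Permutation p-values are two-sided, and 1e-05 is the smallest that 100000 permutations could give.

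Ccl2 and Ccl7, whose bodies are 8258 bases apart, had almost the same profile (r = 0.952, Spearman rho = 0.956, permutation p = 1e-05). The relation held in the libraries without Y chromosome counts (r = 0.869) and in those with them (r = 0.956), and within 5 blocks of consecutive library numbers, of 93 to 94 libraries each, it lay between 0.936 and 0.966. Ccl6 and Ccl9, 9245 bases apart, were the next closest pair (r = 0.902, rho = 0.890, permutation p = 1e-05), with r = 0.883 without and 0.896 with Y chromosome counts.

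The 2 clusters also varied together, although more than a megabase lies between them. Ccl9 had r = 0.818 with Ccl2 and 0.798 with Ccl7, and Ccl6 had r = 0.722 with Ccl2 and 0.684 with Ccl7 (permutation p = 1e-05 for all 4 pairs). Within the libraries without Y chromosome counts these values were lower, at 0.613, 0.602, 0.502 and 0.475, and within those with them they were 0.778, 0.739, 0.744 and 0.681. Ccl8 was more loosely tied to all of these, with r from 0.479 to 0.528.

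Ccl11 did not follow its neighbours. It lies between Ccl7 and Ccl8, 10297 bases after Ccl7, and had r = 0.0222 with Ccl7 (rho = 0.00146, permutation p = 0.634), 0.0316 with Ccl2 (p = 0.5) and -0.0043 with Ccl8 (p = 0.926). Within libraries without Y chromosome counts its r with Ccl7 was 0.241 (p = 0.0003) and within those with them 0.141 (p = 0.0294), so a weak positive relation appeared in each set. Its r with Ccl6 was 0.234 (permutation p = 1e-05), with 0.509 in libraries lacking Y chromosome counts and 0.229 in the others. Its r with Ccl9 was 0.0997, with 0.419 and 0.152 in these sets, so both relations were closer within the first set than over all libraries. A further relation was, downward, with Cx3cl1 (r = -0.295, permutation p = 1e-05). The latter was r = -0.0786 without and -0.366 with Y chromosome counts, and r was 0.0492 when CPM was scaled by the plain total without TMM.

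Cxcl12 and Cxcl10 stood apart from the rest. Cxcl12 had r between -0.153 and -0.132 with Ccl2, Ccl6, Ccl7 and Ccl9, and each of these 4 turned positive without TMM, between 0.106 and 0.132. The remaining 4 pairs of Cxcl12 lay between -0.0392 and 0.0263. Cxcl10 reached its largest values in size with Ccl6 (r = -0.153) and Ccl9 (r = -0.137), which became -0.000466 and 0.0183 without TMM. Cx3cl1 rose with Ccl7 (r = 0.410) and Ccl2 (r = 0.391, permutation p = 1e-05 for both), but its r with Ccl2 was 0.404 without Y chromosome counts and 0.00283 with them (p = 0.965).

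**Figure D2:**
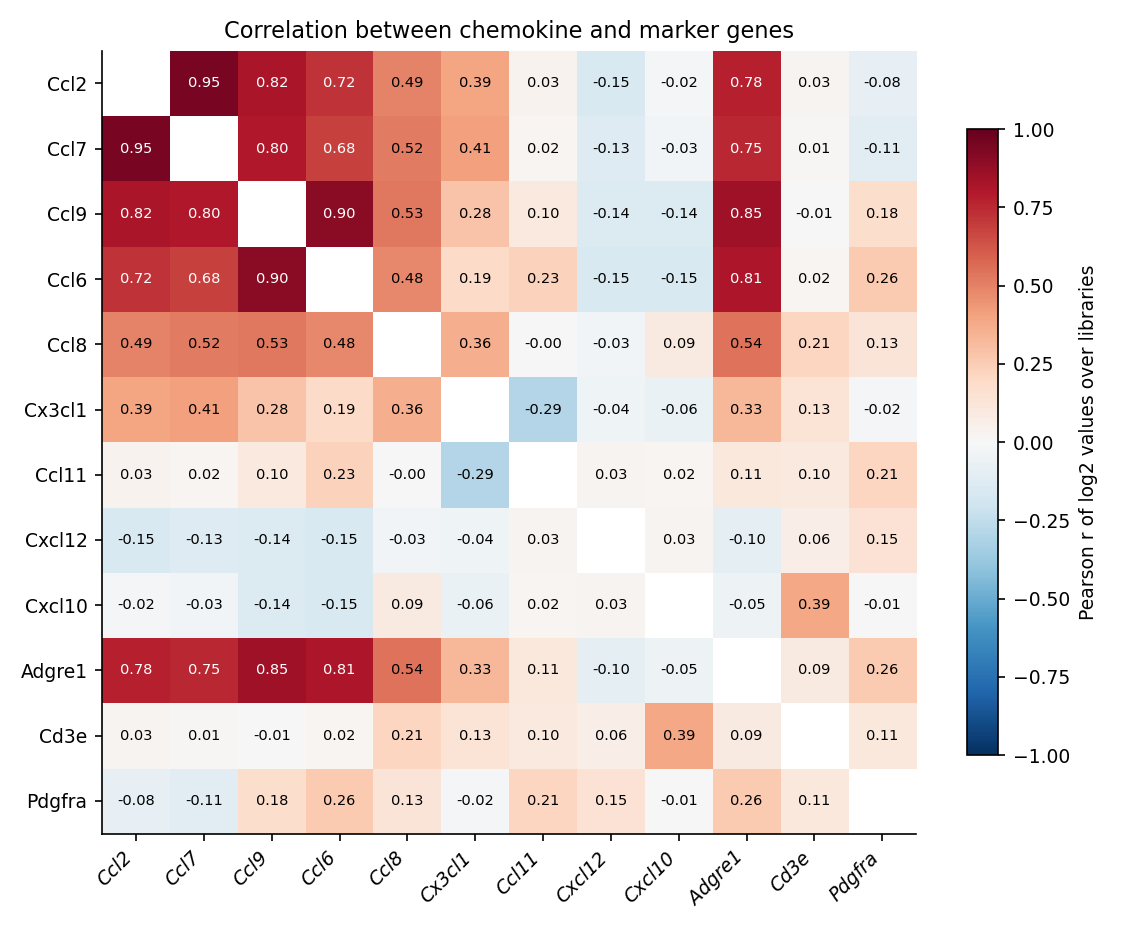
Pearson r between log2 CPM of each pair of the 9 chemokines and 3 marker genes over libraries, red for positive and blue for negative. Ccl2, Ccl7, Ccl9, Ccl6 and Ccl8 form a block with Adgre1 in which r runs from 0.479 to 0.952, while Ccl11, Cxcl12 and Cxcl10 lie outside it.

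The second question was how each chemokine related to the 3 marker genes. Adgre1 rose with 7 of the 9 chemokines and fell with 1 (Cxcl12) at an adjusted p below 0.05 in edgeR's quasi-likelihood test, where 77.4% of all genes were called, 34.4% rising and 43% falling. Slopes are in log2 CPM of the chemokine per log2 CPM of the marker, so a slope of 1 means that both genes changed by the same factor. In bulk tissue, fewer cells of a type and less RNA per cell cannot be told apart. Adgre1, Ccl2, Ccl7, Ccl6, Ccl9, Ccl8 and Cx3cl1 also moved with the TMM factor of the library (r of log2 values from 0.459 to 0.633, the last for Cx3cl1), whose part in these relations was not tested beyond the rescaled values given here.

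Ccl9 followed Adgre1 most closely (r = 0.848, rho = 0.827, permutation p = 1e-05), closer than 99.08% of all genes, and its r was 0.649 without and 0.878 with Y chromosome counts. Ccl6 had r = 0.805, Ccl2 0.776, Ccl7 0.752 and Ccl8 0.540, which placed them above 98.43%, 97.98%, 97.57% and 91.11% of genes (permutation p = 1e-05 for each). The order by slope was different, because Ccl2 and Ccl7 have the wider ranges.
Per unit of log2 Adgre1, Ccl7 rose by 1.57 ± 0.0623 (SE) and Ccl2 by 1.54 ± 0.0561, against 0.90 ± 0.0666 for Ccl8, 0.89 ± 0.0228 for Ccl9 and 0.73 ± 0.0222 for Ccl6. The slopes of Ccl7 and Ccl2 lay above 99.89% and 99.87% of all genes. Adjusted for Xist and Y chromosome genes, the joint slopes given further on were smaller for both but kept this order. Least-squares slopes of log2 CPM were also taken within each set of libraries. Ccl2 had 1.05 ± 0.1 (SE) without and 1.21 ± 0.0615 with Y chromosome counts, and Ccl7 1.12 ± 0.111 and 1.17 ± 0.0673. Ccl8 had 1.02 ± 0.126 and 0.87 ± 0.0891, so without Y chromosome counts it was about as steep as Ccl2 and Ccl7.

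The library with the most Adgre1 went against the relation. Mouse DO021 had 656.5 CPM of Adgre1, where the median was 47.5, yet it had 25.7 CPM of Ccl9, 0.645 CPM of Ccl2 and 0.413 CPM of Ccl7, below the median of each gene. Other macrophage markers of this library were divided, with more of them above their medians than below. Itgam lay above 97.9% of libraries, Cd14 (49.6 CPM) above 97.2%, C1qc above 94.4%, C1qb above 90.6%, C1qa above 83.8% and Mertk above 72.6%. Fcgr1 and Lyz2 lay above 53.8% and 53.4%. Cd68 was at 26.6 CPM, Csf1r at 149.5 CPM and Mrc1 at 76.4 CPM, below their medians. Without DO021 and the other library farthest from the median of Adgre1, r rose to 0.874 for Ccl9 and 0.802 for Ccl2.

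The remaining chemokines were tied weakly or not at all to Adgre1. Cx3cl1 rose with it (r = 0.330, permutation p = 1e-05, slope 0.21, adjusted p = 8.26e-11 in edgeR), with r = 0.469 in libraries lacking Y chromosome counts and 0.00266 in the others. Ccl11 had r = 0.107 (slope 0.05, adjusted p = 0.0299 in edgeR). Cxcl12 fell slightly (r = -0.0955, slope -0.05, adjusted p = 0.00859 in edgeR), and Cxcl10 had r = -0.0516 (slope -0.03, adjusted p = 0.401). Scaling by the plain total raised r with Adgre1 for the median gene from -0.0151 to 0.227, and with it that of Cxcl12 to 0.173 and that of Ccl11 to 0.330, while their ranks among all genes moved little, from above 40.81% to above 43.98% of genes for Cxcl12 and from 64.13% to 61.09% for Ccl11.

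Among the 9 chemokines, Cxcl10 had the highest r with Cd3e. Cxcl10 rose with Cd3e (r = 0.388, rho = 0.386, permutation p = 1e-05), closer than 99.02% of all genes, by 0.27 ± 0.0286 (SE) log2 units per log2 unit of Cd3e (adjusted p = 1e-17 in edgeR). The relation was present without (r = 0.323) and with Y chromosome counts (r = 0.451), and in 5 blocks of mouse numbers r lay between 0.276 and 0.489. Ccl8 also rose with Cd3e (r = 0.214, slope 0.27 ± 0.0590, adjusted p = 0.000138 in edgeR), and Cx3cl1 did so by 0.08 ± 0.0304 (adjusted p = 0.0488). These were 3 of the 9 chemokines, beside 23.6% of all genes called and 10.1% rising. Ccl2, Ccl6, Ccl7 and Ccl9, the genes closest to Adgre1, had r between -0.00534 and 0.0252 with Cd3e. Cd3e was itself low, at 0.0890 to 10.7 CPM (median 1.03), so its counts were a median of 86 per library. With the score of 8 T cell markers in its place, 8 of the 9 chemokines were called, all rising, beside 8358 of all genes. Ccl8 then had r = 0.382 beside 0.408 for Cxcl10, and Ccl2 and Ccl7 rose by 0.254 (adjusted p = 0.00831 in edgeR) and 0.277 (adjusted p = 0.00551). The T cell markers differed in this. With Ccl2, r was 0.336 for Cd2, 0.276 for Trac and 0.165 for Cd4, and between 0.0252 (Cd3e) and 0.126 (Cd8a) for the others. With Ccl7 it was 0.315, 0.246 and 0.165, and between 0.00849 (Cd3e) and 0.110 (Cd8a) for the others.

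Pdgfra rose with 5 of the 9 chemokines, beside 52.2% of all genes called and 22.6% rising. Ccl6 rose by 0.65 ± 0.0864 (SE) per log2 unit (r = 0.263), Ccl9 by 0.57 ± 0.1035 (r = 0.179), Ccl8 by 0.40 ± 0.170 (adjusted p = 0.0381 in edgeR), Ccl11 by 0.23 ± 0.0446 (r = 0.215) and Cxcl12 by 0.12 ± 0.0404 (r = 0.147). Ccl2 and Ccl7 were not called, with slopes of 0.07 ± 0.186 and -0.05 ± 0.196. Pdgfra itself rose with Adgre1 (r = 0.260, permutation p = 1e-05), so the 3 markers were next fitted together.

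**Figure D3:**
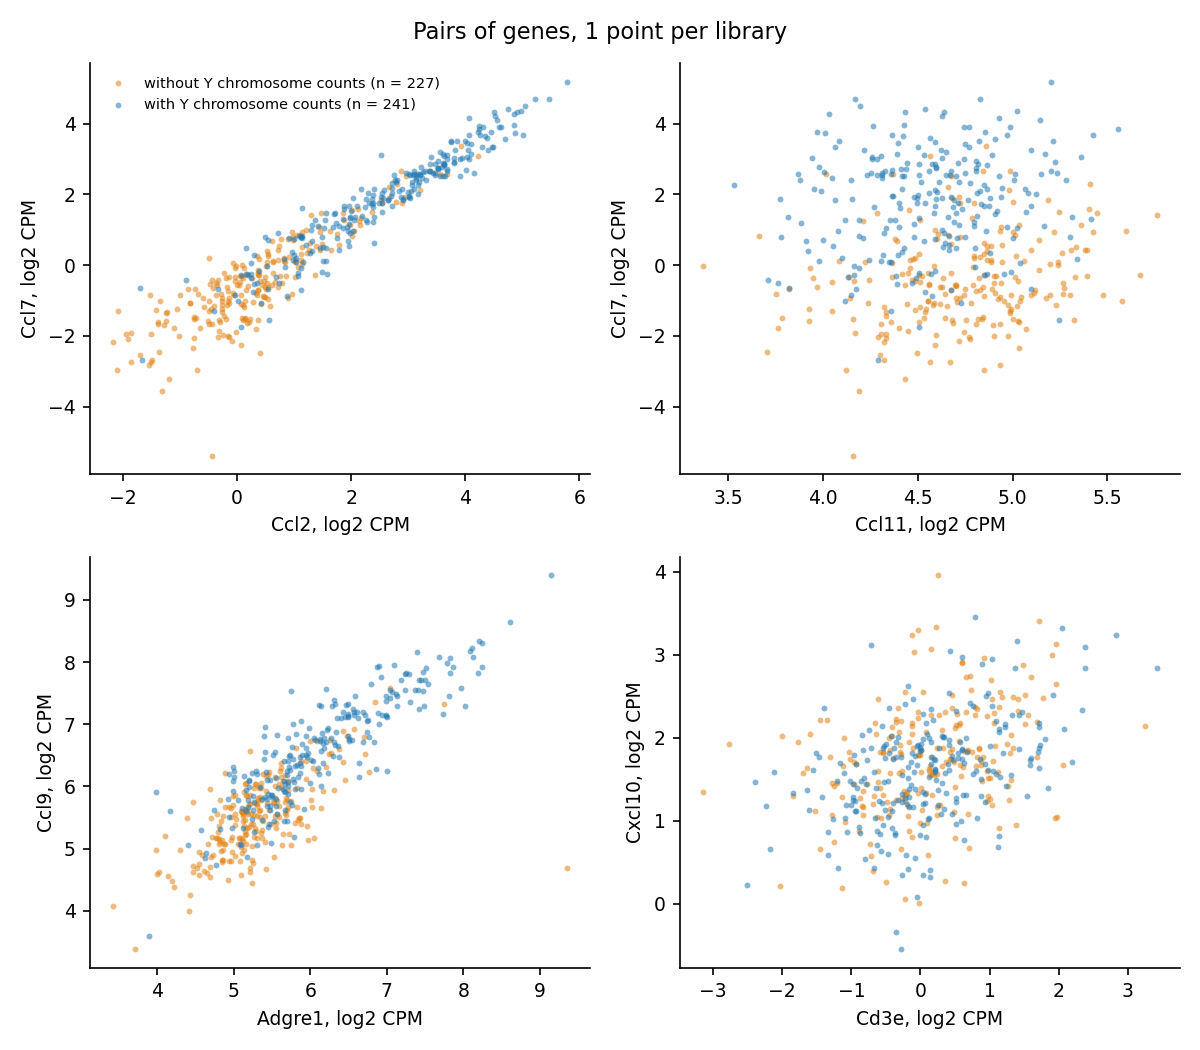
Log2 CPM of 4 pairs of genes, 1 point per library, blue for libraries with and orange for those lacking Y chromosome counts. Ccl2 and Ccl7 fall on a narrow line (r = 0.952), Ccl11 and Ccl7 show none (r = 0.0222), Ccl9 rises with Adgre1 (r = 0.848) except in the library at the far right, which is mouse DO021, and Cxcl10 rises loosely with Cd3e (r = 0.388).

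With Adgre1, Cd3e and Pdgfra in 1 model, the chemokines fell into distinct patterns. Adgre1 was associated with 8 of the 9 (78.7% of all genes called), Cd3e with 3 (23.4%) and Pdgfra with 6 (56.8%). The calls on Cd3e were Cxcl10 and Ccl8, rising, and Ccl9, which fell by 0.07 ± 0.0226 (SE, adjusted p = 0.0107 in edgeR), while Cx3cl1 was no longer called (adjusted p = 0.0622). Ccl2 and Ccl7 rose with Adgre1 by 1.68 ± 0.04996 and 1.72 ± 0.0557 (SE), and fell by 1.31 ± 0.111 and 1.39 ± 0.121 per log2 unit of Pdgfra (adjusted p = 5.49e-26 and 5.38e-25 in edgeR). Only 1.116% and 0.936% of genes had a Pdgfra slope as low or lower. With Xist and the Y chromosome genes added, these Pdgfra slopes were -0.90 ± 0.121 and -0.94 ± 0.132 (adjusted p = 1.39e-11 and 9.41e-11), and the Adgre1 slopes were 1.44 and 1.45.

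Ccl6 and Ccl9 did not share the fall with Pdgfra. In the same model Ccl6 rose with Pdgfra by 0.13 ± 0.0541 (adjusted p = 0.0264 in edgeR), and Ccl9 had a slope of -0.10 ± 0.0554 (adjusted p = 0.127) that became 0.20 ± 0.0589 (adjusted p = 0.00255) with Xist and the Y chromosome genes added. Ccl8 kept its slope on Adgre1 (0.88 ± 0.0668) and on Cd3e (0.22 ± 0.0524, adjusted p = 0.000575). Cxcl10 kept its slope on Cd3e (0.28 ± 0.0288, adjusted p = 1.49e-18) and fell slightly with Adgre1 (-0.07 ± 0.0325, adjusted p = 0.038), a call that was lost with Xist and the Y chromosome genes added (adjusted p = 0.554).

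Ccl11 and Cxcl12, the genes of smallest SD, both rose with Pdgfra in the joint model, and for Ccl11 the calls depended on the terms in it. Ccl11 rose with Pdgfra by 0.20 ± 0.0459 (adjusted p = 4.06e-05 in edgeR) and had no call on Adgre1 (slope 0.02, adjusted p = 0.318), but its Pdgfra slope was 0.09 with an adjusted p of 0.141 once Xist and the Y chromosome genes were added. Its Adgre1 slope was then 0.08 ± 0.0257 and was called (adjusted p = 0.00221). Cxcl12 rose with Pdgfra by 0.16 ± 0.0412 (adjusted p = 0.000476) and by 0.15 with these genes added (adjusted p = 0.00547). Cx3cl1 fell with Pdgfra by 0.21 ± 0.0694 (adjusted p = 0.00706), and this slope was 0.11 (adjusted p = 0.185) with Xist and the Y chromosome genes added.

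The 3 markers together accounted for 72.6% of the variance of log2 CPM of Ccl9, 68.9% of Ccl2, 66.7% of Ccl7, 65.4% of Ccl6 and 32.1% of Ccl8, beside 11.5% for the median gene. They accounted for 15.9% of Cxcl10, 13.4% of Cx3cl1, 5.4% of Ccl11 and 4.4% of Cxcl12. What they left over was still shared between neighbours. Given the 3 markers, Ccl2 and Ccl7 had a partial r of 0.853 and Ccl6 and Ccl9 one of 0.709 (permutation p = 1e-05 for both). Across the clusters, Ccl2 with Ccl9 had 0.502 and Ccl7 with Ccl9 0.477, while Ccl2 with Ccl6 dropped to 0.342 and Ccl8 with Ccl9 to 0.190. Within the first cluster, Ccl11 had 0.00924 with Ccl7, 0.0125 with Ccl2 and -0.0897 with Ccl8, and Ccl8 had 0.163 with Ccl2 and 0.249 with Ccl7. Of the 36 pairs, 3 kept a partial r above 0.5.

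**Figure D4:**
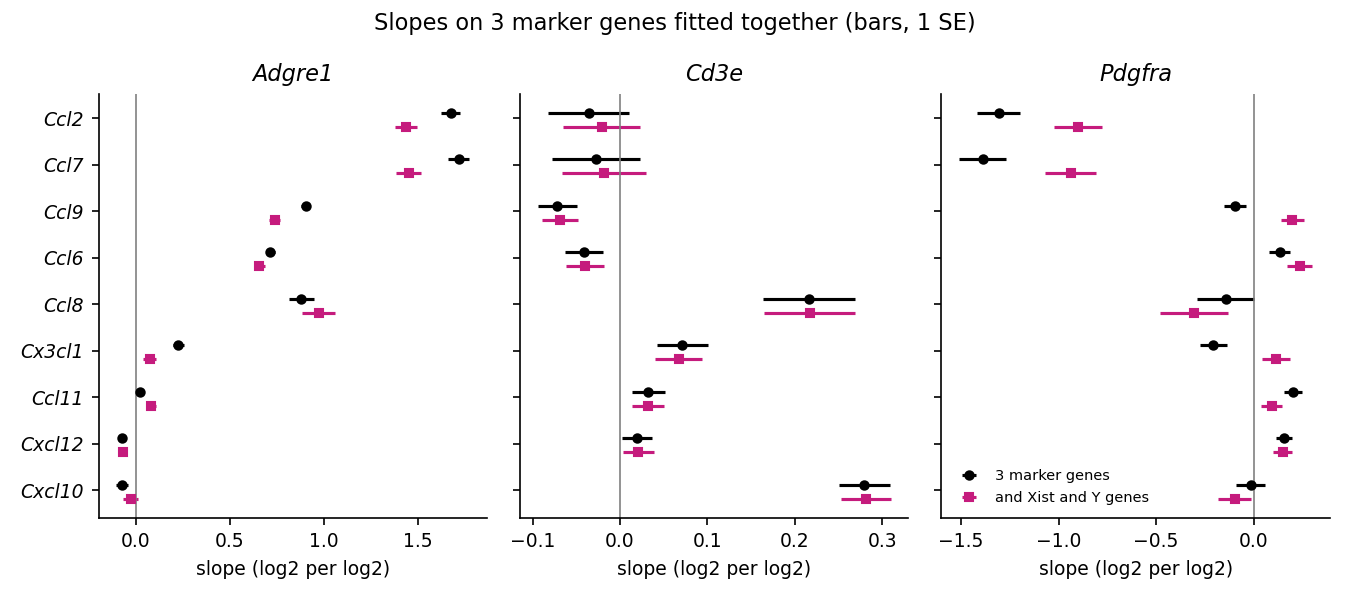
Slopes of each chemokine on log2 CPM of Adgre1, Cd3e and Pdgfra fitted together (black circles) and with Xist and the Y chromosome genes added (pink squares), with bars of 1 standard error. Ccl2 and Ccl7 have the largest positive slopes on Adgre1 (1.68 and 1.72) and the lowest on Pdgfra (-1.31 and -1.39), and Cxcl10 and Ccl8 have the highest on Cd3e (0.28 and 0.22).

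Scores of 16 gene lists, each the mean of standardized log2 CPM over its genes, were related to all 9 chemokines. Ccl9, Ccl6 and Ccl8 had their highest r with the 12 macrophage markers (0.899, 0.877 and 0.586). Ccl2 and Ccl7 had theirs with the 6 markers of lipid-associated macrophages, the cells that surround dying adipocytes (Trem2, Cd9, Gpnmb, Spp1, Lpl and Itgax, of which adipocytes also express Lpl and Cd9), at 0.861 and 0.833 against 0.791 and 0.765 for all macrophages. That difference was seen in libraries lacking Y chromosome counts (0.738 against 0.623 for Ccl2, 0.691 against 0.614 for Ccl7) and hardly in the others (0.785 against 0.784, and 0.734 against 0.738). The genes of this list differed. Their r with Ccl2 and Ccl7 was 0.899 and 0.872 for Itgax, 0.845 and 0.807 for Gpnmb, and 0.778 and 0.771 for Spp1. Cd9 had 0.760 and 0.762, but Trem2 had 0.490 and 0.462 and Lpl 0.0462 and 0.0183. Ccl9 and Ccl6 had r = 0.841 and 0.736 with the score of the same lipid-associated markers. With the 6 markers of resident macrophages (Lyve1, Timd4, Folr2, Cd163, Mrc1 and F13a1), r was 0.664 for Ccl6 and 0.602 for Ccl9, and 0.425 for Ccl2 and 0.420 for Ccl7. The permutation p was 1e-05 for each of these scores over all libraries.

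With both macrophage lists in 1 model, Ccl2 rose by 1.44 ± 0.0454 (SE) log2 units per SD of the lipid-associated score and by 0.12 ± 0.0460 per SD of the resident score (adjusted p = 0.0221 in edgeR). Ccl7 rose by 1.48 ± 0.0521 and by 0.10 ± 0.0515, and the second of these was not called (adjusted p = 0.0993). Ccl6 rose by 0.45 ± 0.0215 and 0.34 ± 0.0232, Ccl9 by 0.68 ± 0.0212 and 0.26 ± 0.0229, and Ccl8 by 0.44 ± 0.0621 and 0.46 ± 0.0637. The resident slope of Ccl8 lay above 99.93% of genes and that of Ccl6 above 99.61%. The genes of the resident list differed. With Ccl8, r was 0.598 for Mrc1, also a gene of the macrophage list, 0.492 for F13a1 and 0.375 for Folr2. It was 0.194 for Lyve1, 0.192 for Timd4 and 0.108 for Cd163. With Ccl6 these values were 0.821, 0.636, 0.510, 0.396, 0.178 and 0.340, in the same order. With Ccl2 they ran from 0.704 (Mrc1) to -0.0152 (Cd163). The lipid-associated score was called for 8 of the 9 chemokines (78% of all genes) and the resident score for 6 (49.1%), and Ccl11 was the gene that rose with the resident score (0.10 ± 0.0199, adjusted p = 3.98e-06) without a call on the other (adjusted p = 0.377). Adjusted for Xist and Y chromosome genes, Ccl11 was called on the lipid-associated score too (slope 0.0772, adjusted p = 0.0031).

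Cxcl10 followed the 9 targets of interferon gamma (among them Gbp2, Igtp, Irf1 and Cxcl9) at r = 0.546 (rho = 0.458, permutation p = 1e-05), T cells at 0.408 and the 8 targets of type I interferon at 0.319. Fitted together, it rose by 0.31 ± 0.0321 (SE) per SD of the interferon gamma score (adjusted p = 2.47e-17 in edgeR, above 98.98% of genes) and by 0.10 ± 0.0293 per SD of the T cell score (adjusted p = 0.00181), with -0.01 ± 0.0307 for type I interferon (adjusted p = 0.77). In that model the interferon gamma score was called for 6 of the 9 chemokines (52.4% of all genes, 22% rising and 30.4% falling), and Cxcl10 was the only one of them that rose. Ccl2, Ccl6, Ccl7, Ccl9 and Cx3cl1 fell, by 0.14 to 0.45, with the T cell and type I scores held fixed. Their r with the interferon gamma score alone was -0.057, -0.0363, -0.0536, -0.0807 and 0.00137, in this order. In libraries lacking Y chromosome counts this r lay between 0.134 and 0.202, and in the others between -0.0844 and -0.00656. The T cell score was called for 7 chemokines (51.5% of genes) and the type I score for 4 (32%, with 14% rising), the latter Ccl8 (0.31), Ccl6 (0.20), Ccl9 (0.20) and Cx3cl1 (0.09), all rising.

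Cx3cl1 had its largest relation, a negative one, with the score of the 6 adipocyte markers (r = -0.497, rho = -0.455, permutation p = 1e-05), with r = -0.399 without and -0.568 with Y chromosome counts. The markers were not uniform: Lipe, Plin1, Fabp4, Adipoq and Cidec had r from -0.572 to -0.282 with Cx3cl1, and Lep had 0.254. Ccl11 had its highest r with the 8 markers of adipocyte progenitors (0.349, permutation p = 1e-05, with 0.451 without and 0.168 with Y chromosome counts). Cxcl12 did not exceed 0.189 in size with any list, and that value was negative and with lipid-associated macrophages. Scores of 2 response lists rose with all 5 chemokines that were close to Adgre1. The score of the 9 genes of the NF-kB response had r = 0.763 with Ccl2, 0.744 with Ccl7, 0.737 with Ccl9, 0.676 with Ccl6 and 0.509 with Ccl8. Nfkbia of that list went the other way, with r from -0.319 (Ccl7) to -0.0969 (Ccl6), while its other genes had positive r with all 5. The 8 immediate early genes, which can rise within minutes of handling tissue, had 0.466 with Ccl2, 0.478 with Ccl7, 0.387 with Ccl9, 0.301 with Ccl6 and 0.230 with Ccl8, and for Ccl2 and Ccl7 these were 0.233 and 0.253 without Y chromosome counts. Among the immediate early genes, Jun had r from -0.148 to -0.0832 with these 5 chemokines, and Dusp1 from -0.0596 to 0.012. The part of handling in the levels of these chemokines was not tested.

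The other lists had smaller values over all libraries. Mesothelial cells ranged from r = -0.314 with Ccl2 to 0.259 with Ccl11, B cells from -0.0593 with Cxcl12 to 0.292 with Cx3cl1, endothelial cells from -0.141 with Ccl8 to 0.104 with Cxcl12, and mast cells from -0.0958 with Ccl7 to 0.205 with Ccl11. Endothelial r with Ccl2 was 0.402 without and -0.295 with Y chromosome counts, and with Ccl7 0.315 and -0.291. With Ccl9 it was 0.183 and -0.356, and with Ccl6 0.106 and -0.364, so the values over all libraries hide opposite signs. The endothelial genes also differed in sign over all libraries. With Ccl2, r was 0.394 for Pecam1, 0.297 for Cdh5, 0.173 for Ptprb and 0.143 for Cldn5, but -0.068 for Tek and -0.498 for Kdr. With Ccl9 the values ran from 0.302 (Pecam1) to -0.564 (Kdr). Mesothelial r with Ccl2 was -0.0024 without and -0.249 with Y chromosome counts. Eosinophils (3 genes) reached 0.335 with Ccl6 and had 0.186 with Ccl11, the eotaxin, and neutrophils (3 genes) reached 0.350 with Ccl6. The neutrophil genes were not uniform. S100a8 had r = 0.593 with Ccl6, while Retnlg had 0.157 and S100a9 -0.0445. With Ccl2 these were 0.718, 0.0342 and -0.0826, so mostly S100a8 carried the relation.

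**Figure D5:**
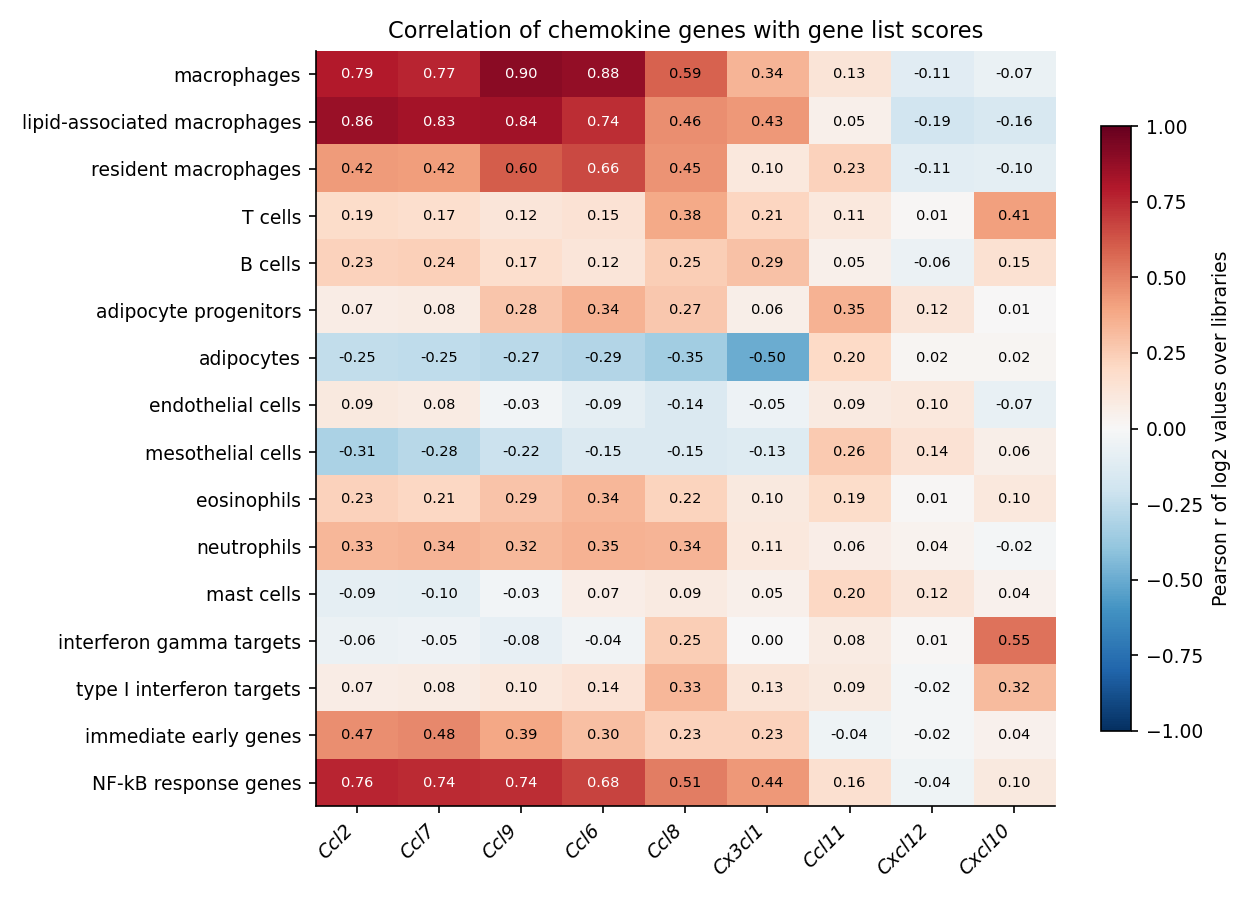
Pearson r between log2 CPM of each chemokine (columns) and the score of each gene list (rows) over libraries. Ccl2 and Ccl7 are highest in the row of lipid-associated macrophages (0.861 and 0.833), Ccl9 and Ccl6 in the row of macrophages (0.899 and 0.877), and Cxcl10 in the row of interferon gamma targets (0.546).

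Receptors of the chemokines were set against their ligands in 9 pairs. Ccr2 rose with Ccl2 (r = 0.824) and Ccl7 (r = 0.815), and Ccr1 with Ccl9 (r = 0.719) and Ccl6 (r = 0.682), with permutation p = 1e-05 for all 4. Ccr1 had a higher value with Ccl2 (r = 0.748), which was not set against it as a pair, and 0.729 with Ccl7. The order of r with Ccr1 therefore did not follow the pairs chosen here. Within libraries without and with Y chromosome counts, Ccr2 had 0.672 and 0.842 with Ccl2, and Ccr1 had 0.627 and 0.579 with Ccl9. Cx3cr1 rose with Cx3cl1 (r = 0.625, rho = 0.640, permutation p = 1e-05), with 0.556 without and 0.473 with Y chromosome counts. Cx3cr1 too was closer to Ccl2 (r = 0.739) and Ccl7 (r = 0.744) than to its own ligand.

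Cxcr3 rose with Cxcl10 (r = 0.328, rho = 0.281, permutation p = 1e-05) and Ccr3 with Ccl11 (r = 0.216, permutation p = 2e-05), though the latter was 0.308 without and 0.0765 with Y chromosome counts (p = 0.238 for the second). Cxcl12 fell as its signalling receptor Cxcr4 rose (r = -0.184, permutation p = 0.00011), and this was 0.0968 without TMM. Ackr3, which scavenges Cxcl12, was the most abundant receptor of the list (median 57.01 CPM) and had r = 0.0127 with it (p = 0.783).

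Among the other chemokines, 10 of 15 further CC genes and 10 of 14 further CXC and C genes passed the filter, and Ccl1, Ccl20, Ccl26, Cxcl3, Cxcl5 and Cxcl15 were not analysed here. In the joint model, 6 of the CC genes rose and 3 fell with Adgre1 (35.8% and 42.9% of all genes), and 5 fell and 1 rose with Pdgfra (31.3% and 25.5%), with a median Pdgfra slope of -0.48 beside -0.01 for all genes. Ccl3, which is made by activated macrophages, had an Adgre1 slope of 1.34 ± 0.0610 (SE), below those of Ccl2 and Ccl7. Cxcl1 and Cxcl2, which draw neutrophils, had Adgre1 slopes of 0.85 ± 0.0444 and 1.00 ± 0.0567 and Pdgfra slopes of -0.79 ± 0.102 and -0.63 ± 0.138, the same directions as Ccl2 and Ccl7. Ccl5, a product of T cells, had the highest Cd3e slope of the list (0.75 ± 0.0305), and Cxcl9, the companion of Cxcl10, had r = 0.494 with Cxcl10 and an Adgre1 slope of -0.12 ± 0.0302. Of 16 receptors tested, 13 rose with Cd3e in the joint model, beside 11% of all genes, and 11 rose with Adgre1, beside 35.8%.

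The genes most like each chemokine were taken from the 3 of highest r among the 14684 genes whose mean reached 1 CPM. For Ccl2 they were Itgax (r = 0.899), which encodes CD11c, Cd44 (0.897) and Tnip3 (0.895), and for Ccl7 the same 3 genes, at 0.872, 0.871 and 0.871. For Ccl9 they were Cd84 (0.909), Cd68 (0.908) and Cerk (0.904), and for Ccl6 Tlr8 (0.867), the Fc receptor gene Fcgr3 (0.861) and the oxidase subunit gene Ncf1 (0.853). Ccl8 was most like Irf8 (0.643), a transcription factor of myeloid cells, Fcgr1 (0.631) and Slfn2 (0.617).

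Cxcl10 was most like Igtp (0.511), Irf1 (0.510) and Gbp10 (0.50), and Igtp and Irf1 belong to the list of interferon gamma targets. Cx3cl1 was close to Trim7 (0.758) and Lrrc75b (0.749), with r of 0.471 and 0.473 in libraries lacking Y chromosome counts and 0.772 and 0.760 in the others. Ccl11 had no close companion, with Duox1 (0.440), Smpd3 (0.434) and Tmeff2 (0.416) at the top, and Cxcl12 had even lower values with Ephb4 (0.362), a receptor of endothelial cells, Arhgef15 (0.356) and Ripor1 (0.351). The lowest r was -0.872 for Ccl2 (Acsm3), -0.859 for Ccl7 (Timm21), -0.806 for Ccl9 (Fn3k), -0.722 for Ccl6 (Slc25a23) and -0.302 for Cxcl10 (Fkbp5).

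Library and mouse numbers were used as checks of order. No chemokine was associated with library number in edgeR at an adjusted p below 0.05, where 57 genes (0.31%) were called, and 2 chemokines, Ccl11 and Ccl6, had an unadjusted p below 0.05 (0.0386 and 0.0405). With mouse number, 3 of the 9 rose (23.3% of all genes called, 11.3% rising): Ccl7 by 0.27 ± 0.0519 (SE) log2 units per 100 numbers (adjusted p = 2.61e-05), Ccl2 by 0.23 ± 0.0501 (adjusted p = 0.000163) and Ccl9 by 0.07 ± 0.0283 (adjusted p = 0.0433). All 8 immediate early genes also rose with mouse number (median slope 0.18), as did 5 of the 9 NF-kB response genes, and their part in these results was not tested. After adjustment for Xist and Y chromosome genes none of the 3 chemokines was called.

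Relations with the markers were also compared between the libraries with and without Y chromosome counts. The slope on Adgre1 differed for 4 of the 9 chemokines (50.8% of all genes called in edgeR), that on Pdgfra for 4 (44.8%) and that on Cd3e for 0 (2.63%). On Cd3e, limma called 0 chemokines too, and the lowest unadjusted p in edgeR was 0.05837, for Ccl2.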

How the data were processed

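Adipose RNA of 468 DO mice, 1 library each, was analysed as 1 group. The authors deposited expected counts per gene, made by aligning reads to a transcriptome of the founder strains (GRCm38 annotation) and sharing them by expectation maximization (EMASE, run in GBRS), and 66.8% of the values were whole within 1e-06. Reads shared between near-identical genes are split by that estimate. The authors also deposited log2-like values from DESeq2's variance stabilizing transformation, used here only as an alternative. Their methods describe removal of batch effects, and how much of it is in these values is not given in the sources used here. Labels give no separate cultures or repeat libraries, so the spread is that between mice. Gene positions were taken from the annotation of GRCm38.

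Counts were rounded and genes with at least 10 counts in at least 50% of libraries kept. Fits used edgeR 4.0.16 (quasi-likelihood test, TMM, Benjamini-Hochberg adjustment over all genes tested, threshold 0.05), with limma 3.58.1 on log2 CPM (prior count 2) and DESeq2 1.42.0 as alternatives, in R 4.3.3. Correlations used scipy 1.17.1, numpy 2.4.6 and pandas 2.3.3 in Python 3.11.15, with 100000 permutations (10000 within subsets of the receptor pairs and in alternatives), and figures matplotlib 3.10.9. Tested on simulated data for the association with Adgre1 over 18380 genes, the fit recovered 82% of slopes of size 0.2 and 100% of slopes of size 0.5, and called 0.0495% of unchanged genes.

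The members and lists were chosen with earlier results of these data known. Named genes were the 9 chemokines, the 3 markers, for each chemokine the 3 genes of highest and the 1 of lowest r with a mean of at least 1 CPM, and listed chemokines and receptors past the filter. A gene that this rule names is not reported here. The list scores, the models of list scores, the receptor pairs and the markers of mouse DO021 were chosen after seeing the data. Levels were not compared between libraries with and without Y chromosome counts, since the labels give no sex. Alternatives were other scalings, filters, tools, capped values, list scores, Xist and Y chromosome genes as covariates, library and mouse numbers as covariates or blocks, and leaving out the 47 libraries of lowest total count.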

Additional observations from a re-analysis of the deposited data

Results flagged for a closer look

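For 8 relations the slope differed between the libraries with and without Y chromosome counts, by the interaction term in edgeR's quasi-likelihood test with Benjamini-Hochberg adjustment, given as with minus without. On Adgre1 these were 4 of the 9 chemokines, beside 50.8% of all genes called. Cx3cl1 differed by -0.34 ± 0.0631 (SE, adjusted p = 1.15e-06), with least-squares slopes of log2 CPM of 0.323 without and 0.00183 with Y chromosome counts. Ccl8 differed by -0.39 ± 0.167 (adjusted p = 0.0416), Ccl11 by -0.12 ± 0.0492 (adjusted p = 0.036) and Cxcl12 by 0.11 ± 0.0443 (adjusted p = 0.03). With the score of the macrophage list in place of Adgre1, the difference for Ccl8 was -0.288 and no longer called (adjusted p = 0.106), and those for Cx3cl1 (-0.311), Ccl11 (-0.182, adjusted p = 0.000418) and Cxcl12 (0.102, adjusted p = 0.0403) were called.

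On Pdgfra, 4 of the 9 chemokines differed, beside 44.8% of all genes called. Ccl2 differed by 1.08064 ± 0.3143 (SE, adjusted p = 0.0024) and Ccl7 by 1.08461 ± 0.3292 (adjusted p = 0.00372), with least-squares slopes of log2 CPM of 0.0299 and 0.0324 without against 0.988 and 0.778 with Y chromosome counts. Ccl9 differed by 0.63 ± 0.1602 (adjusted p = 0.000426) and Ccl6 by 0.49 ± 0.1528 (adjusted p = 0.00509). With the score of the progenitor list in place of Pdgfra, the difference was -0.14 for Ccl7 (adjusted p = 0.782) and 0.07 for Ccl2 (adjusted p = 0.896). The call was also lost for Ccl9 (0.389, adjusted p = 0.0514) and kept for Ccl6 (0.395, adjusted p = 0.03). With this score 2 of the 9 chemokines were called, 1 with a positive and 1 with a negative difference. The chemokine with the negative difference had no call on Pdgfra. On Cd3e no chemokine was called, beside 2.63% of all genes.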

How the results depend on the processing

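No paired analysis was possible because the libraries form 1 group. Among alternatives to counts of calls, 9 moved by more than 1.5 times. Of the others 882 kept direction and side of the threshold, 45 lost and 12 gained significance and 66 changed sign. The cause of these changes was not tested. Counts limit Ccl7, Ccl2, Ccl8 and Cd3e most.

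Without TMM factors, r of Cxcl12 was 0.106 with Ccl2, 0.109 with Ccl6, 0.126 with Ccl7, 0.132 with Ccl9 and 0.173 with Adgre1, and r was 0.0492 for Ccl11 and Cx3cl1, 0.129 for Ccl7 and Pdgfra and 0.0183 for Ccl9 and Cxcl10. Within libraries with Y chromosome counts, r of Cxcl12 was 0.0475 with Ccl2, 0.00297 with Ccl6, 0.0507 with Ccl7, 0.0636 with Ccl9 and 0.0725 with Adgre1, that of Cx3cl1 was -0.0965 with Ccl6 and -0.0858 with Ccl9, and that of Ccl7 and Pdgfra was 0.211, against 0.00951 without Y chromosome counts. Given the 3 markers, r of Ccl6 and Cx3cl1 was -0.113.

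Over blocks of library numbers, r reached 0.0202 for Ccl6 and Cxcl12, 0.011 for Ccl9 and Cxcl10, -0.113 for Ccl11 and Cd3e and -0.0274 for Cx3cl1 and Cd3e. Over blocks of mouse numbers it reached 0.0233 for Ccl2 and Cxcl12, 0.0157 for Ccl7 and Cxcl12, 0.0377 for Ccl7 and Pdgfra, -0.118 for Ccl11 and Adgre1, -0.00801 for Ccl8 and Cd3e, -0.0588 for Ccl9 and Ccl11, -0.0052 for Cx3cl1 and Cd3e and -0.0247 for Cxcl12 and Pdgfra.

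Adjusted for Xist and Y chromosome genes, 2311 genes and 0 chemokines were called for mouse number (Ccl9 slope -0.0155). Slopes on Cd3e were 0.0448 for Ccl2, 0.0556 for Ccl7 and 0.00514 for Ccl9, and those on Pdgfra were 0.385 for Ccl7, 0.209 for Cx3cl1 and -0.0341 for Cxcl10. In the joint model Pdgfra had 0.199 for Ccl9 and 0.114 for Cx3cl1, Adgre1 alone had 0.00123 for Cxcl10, the lipid-associated score 0.0772 for Ccl11 (now called, adjusted p = 0.0031), and Cxcl12 had 0.00929 on T cells and -0.0107 on interferon gamma targets.

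By limma on log2 CPM, Ccl2 had 0.0450 on Cd3e and -0.343 on Pdgfra, Ccl7 0.0159 on Cd3e and Cxcl10 -0.00847 on Pdgfra, with 0 genes called for library number (edgeR called 57) and 1 for the difference of slopes on Cd3e. On the deposited transformed values, Ccl2 had 0.0382 on Cd3e and -0.162 on Pdgfra, Ccl7 0.0220 and Ccl9 0.0284 on Cd3e, and Cxcl10 -0.00391 on Pdgfra. With capped values in limma, Ccl2 had 0.0367 on Cd3e and -0.390 on Pdgfra, Ccl7 0.00884 on Cd3e and Cxcl10 -0.0154 on Pdgfra. With library and mouse number in the model, Ccl7 had 0.0156 on Pdgfra.

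With list scores in place of single markers, 8358 genes and 8 chemokines were called for T cells (Cd3e alone 4339 and 3). The difference of slopes on T cells was called for 2379 genes. That on progenitors was called for 2 chemokines, 1 with a positive and 1 with a negative difference. On Pdgfra alone it was called for 4 chemokines, all positive, beside 44.8% of all genes. The share of all genes called with the progenitor score is not given here. Slopes on T cells were 0.254 for Ccl2, 0.277 for Ccl7, 0.113 for Ccl9 and -0.00416 for Cxcl12, those on progenitors 0.125 for Ccl7 and 0.00462 for Cx3cl1, and the difference for Ccl7 was -0.142. Without the libraries of lowest total count, Ccl2 had -0.0283 on Pdgfra, Cxcl10 0.00517 on Pdgfra in the joint model, and 32 genes were called for library number.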
